A study of Mus musculus with 81 samples.

Results

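The comparison described here asked which transcripts differed between bone marrow-derived macrophages (BMDMs) with and without histone H3.3 when both were cultured with a control antibody. Its members were the 6 RNA-seq libraries whose labels name the control antibody, 3 from H3.3 conditional knockout (cKO) and 3 from wild-type (WT) cultures, out of 81 samples in the series. The WT mice carried loxP-flanked H3f3a and H3f3b, H3f3a fl/fl H3f3b fl/fl, without cre. The cKO mice carried the same floxed alleles together with LysM cre/cre, a cre recombinase placed in the Lyz2 gene and expressed in myeloid cells, so both Lyz2 copies were disrupted and cre was present only in the cKO group. Loss of H3.3, loss of Lyz2 and the presence of cre therefore cannot be told apart in this design. Marrow from mice of 8 to 10 weeks on a C57BL/6 background was cultured in medium with L929-cell supernatant, a source of M-CSF, and received 10 µg/mL of a mouse IgG1 isotype control antibody from the start of culture until lysis on day 6. The study used male and female mice. Parallel arms of the same experiment, each with 3 cKO and 3 WT libraries, received no antibody or an antibody against IFNAR1, a subunit of the receptor for type I interferons.

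H3.3 is a variant of histone H3 that is made throughout the cell cycle and is placed into chromatin without DNA replication, at active genes by the HIRA complex and at repeats and telomeres by ATRX and DAXX. H3f3a and H3f3b encode the same protein. Type I interferons bind IFNAR, which activates the kinases JAK1 and TYK2, and interferon-stimulated genes (ISGs) are then switched on through a DNA element known as the ISRE. Many ISG products recognise viral nucleic acid or block viral replication, and several, among them STAT2 and IRF7, are themselves part of the pathway.

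The 6 libraries held between 5295144 and 34380735 read counts on genes, and both the deepest and the shallowest library were cKO. The summed level of 30 macrophage markers, among them Csf1r, Adgre1 and Cd68, lay between 44870 and 47900 CPM (read counts scaled to library size) in WT and between 40160 and 43420 CPM in cKO, and none of these markers was at 0. Of 9 erythroid markers 5 had no count in any of the 6 libraries, globin genes Hba-a1 and Hbb-bs included, and the list summed to between 1.98 and 3.57 CPM in WT and between 2.53 and 3.42 CPM in cKO. Of 11 T and NK cell markers 4 were at 0, Cd3e and Ncr1 included, while Cd3d had between 1 and 6 counts in each library, and the list summed to between 1.47 and 5.03 CPM in WT and between 1.35 and 2.42 CPM in cKO. Of 9 mast cell and basophil markers 4 were at 0, Fcer1a and Tpsb2 included, but the sums did not overlap, at 0.623 to 1.28 CPM in WT and 1.45 to 2.17 CPM in cKO. Kit, a growth factor receptor on that list, had 0.140, 0 and 0.366 CPM in WT and 1.47, 1.27 and 0.934 CPM in cKO (adjusted p = 0.0554), and passed under 5 alternatives. Kit alone made up most of each cKO sum. Other members did not rise with it. Gata2, also tested, had log2 fold changes from −0.90 to −0.06 over the alternatives and was not called. Cpa3 had 2, 2 and 1 counts in WT and 0 in every cKO library. The sums of 13 dendritic cell markers did not overlap either, at 29.96 to 38.7 CPM in WT and 61.8 to 113 CPM in cKO. Of these, 8 were tested with a median log2 fold change of 0.80, Cd24a rose, and Cd209a had no count. Cd24a alone made up most of the sum in every library. Fscn1 and Itgax were higher in every cKO library but not called. Zbtb46 overlapped, at 0.63, 0.34 and 0.549 CPM in WT and 0.583, 1.27 and 0.622 CPM in cKO. Ccr7 had 5, 0 and 1 counts in WT and 0 in every cKO library. The part of mast cells, basophils and dendritic cells in the results below was not tested. Stromal markers were higher in most cKO libraries: the summed level of 18 genes was 146, 115 and 423 CPM in the WT libraries and 374, 687 and 725 CPM in the cKO libraries. WT replicate 3 stood between the others, above the lowest cKO library. Of these 18 genes, 14 were tested and none was called with edgeR, with a median log2 fold change of 1.76, 8 at an unadjusted p under 0.05 and 3 called with DESeq2, and Lum had no count. The 13 genes encoded in mitochondrial DNA summed to between 2125 and 4011 CPM in WT and between 4872 and 6817 CPM in cKO. This sum rests on the 7 that were tested. The others, mt-Nd3, mt-Nd4l, mt-Co2, mt-Co3, mt-Atp6 and mt-Atp8, had at most 7 counts in any of the 6 libraries. The cause of these low counts was not tested. Sums of 5 sex-linked markers lay between 1124 and 1161 CPM in WT and between 1690 and 1969 CPM in cKO. Only Xist was tested, with a log2 fold change of 0.70, and it was called under 5 alternatives but not in the main fit. The Y-linked Ddx3y had 0 counts in every WT library and 0, 7 and 8 in cKO. Kdm5d, also Y-linked, had 0, 1 and 2 counts in WT and 4, 0 and 2 in cKO. Eif2s3y and Uty had 0 in every WT library and 2 to 4 in cKO. Y-linked counts were thus few in all 6 libraries, and Xist made up nearly all of each sum. In these bulk samples, fewer cells of a type and less RNA per cell cannot be told apart. CPM values are on library sizes scaled by the TMM method.

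Transcripts of the targeted genes were reduced in every cKO library. H3f3a (chr1:180800832-180813943 in mm10, minus strand) had 35.7, 36.2 and 37.2 CPM in WT and 5.97, 6.33 and 6.64 CPM in cKO, so that cKO cells held 17.4% of the WT level (log2 fold change −2.53 ± 0.38 SE, adjusted p = 0.00124). H3f3b (chr11:116021912-116027962, minus strand) had 380, 400 and 344 CPM in WT and 41.2, 67.8 and 40.4 CPM in cKO, or 13.3% of WT (−2.92 ± 0.34, adjusted p = 0.000169). The groups did not overlap for either gene, and cKO replicate 2 kept the most H3f3b. The counts cover whole genes. For H3f3a they include exons that cre does not remove, so its remaining level is not a measure of intact alleles. For H3f3b the study describes loxP sites flanking all of its exons. It reports that deletion of H3f3b varied, complete in some cKO samples and partial in others. The part of intact alleles in the remaining H3f3b level was not tested. Lyz2, which encodes lysozyme M, an enzyme that cleaves bacterial cell walls, had between 22950 and 23380 CPM in WT and between 46.1 and 81.9 CPM in cKO (−8.53 ± 0.38, adjusted p = 1.74e-09).

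**Figure D1:**
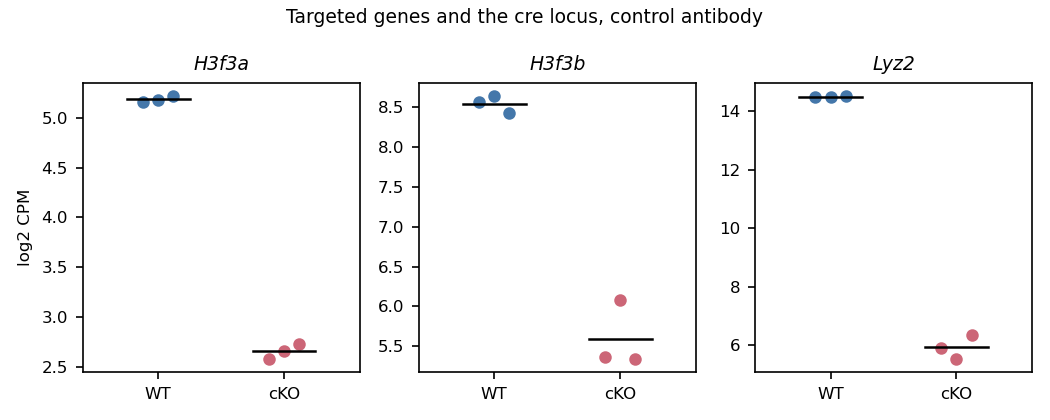
Level of H3f3a, H3f3b and Lyz2 as log2 CPM in each of the 3 WT (blue) and 3 cKO (red) libraries cultured with control antibody; points are libraries and bars are group means of log2 CPM. All cKO points lie below all WT points in each panel, from 5.97 to 6.64 CPM for H3f3a and from 40.4 to 67.8 CPM for H3f3b.

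Of 17191 genes tested with edgeR's quasi-likelihood test, 765 (4.45%) passed a Benjamini-Hochberg adjusted p under 0.05, with 495 higher in cKO (2.88%) and 270 lower (1.57%). The median log2 fold change of all genes tested was 0.0007. An absolute log2 fold change of at least 1 was reached by 396 of the higher and 99 of the lower genes. When libraries were scaled by their totals alone, 588 genes were higher and 155 lower. The spread was estimated over all 18 libraries of the antibody experiment. A fit of the 6 control antibody libraries alone called 3384 genes, of which 1834 were higher, and it kept 725 of the 765 calls. Leaving out 1 library lowered the count to 371, 290 or 459 without WT replicate 1, 2 or 3 and to 448, 499 or 385 without cKO replicate 1, 2 or 3. No called gene changed sign in these fits. One further fit used the counts of a single strand, from the strand column of larger total, in place of the unstranded counts. That column held fewer counts, 2913369 against 5295144 in cKO replicate 2, and 1 called gene changed sign with it.

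**Figure D2:**
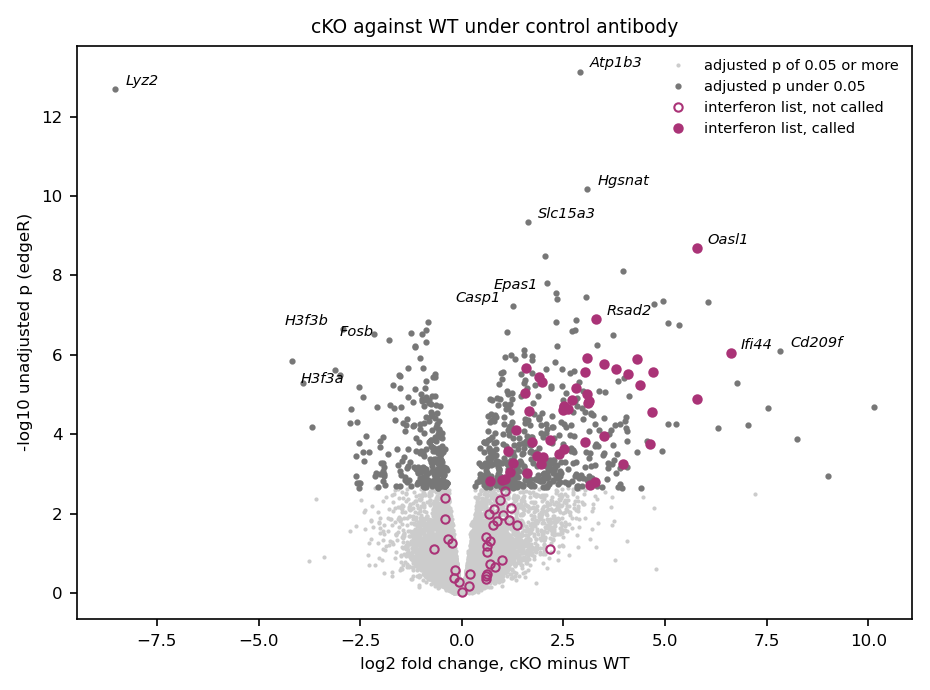
Each point is 1 of the 17191 genes tested; the x axis is the log2 fold change of cKO minus WT under control antibody and the y axis is −log10 of the unadjusted edgeR p. Dark points passed an adjusted p under 0.05, purple marks the 79 tested genes of the interferon list, filled where called; 47 of them are called and all of these lie to the right of 0.

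Several genes of small p, named after their values were seen, were not on the interferon list described below. Atp1b3, a beta subunit of the sodium-potassium pump (chr9:96332655-96364442), had 231, 230 and 218 CPM in WT and 1784, 1503 and 1768 CPM in cKO, 7.46-fold higher (log2 2.90 ± 0.12, adjusted p = 1.26e-09). Hgsnat, a lysosomal acetyltransferase needed to break down heparan sulfate (chr8:25944453-25976753), had 127, 126 and 108 CPM in WT and 1184, 833 and 1041 CPM in cKO (8.48-fold, log2 3.08 ± 0.20, adjusted p = 3.83e-07). Slc15a3, a lysosomal histidine and peptide transporter, had 96.6, 96.4 and 100.3 CPM in WT and 310.3, 299 and 295 CPM in cKO (log2 1.62 ± 0.12, adjusted p = 1.99e-06). These genes showed little spread within a group, and no cKO library came near a WT library. Epas1, which encodes the hypoxia-inducible factor HIF-2α, rose 5.00-fold (adjusted p = 5.26e-05) and Casp1, the inflammasome protease, 2.41-fold (adjusted p = 6.81e-05).

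Among called genes whose groups did not overlap and whose log2 CPM averaged 3 or more, the 10 that rose most included 6 ISGs of the interferon list, namely Irf7, Oasl2, Oas3, Rsad2, Ifi203 and Ifit2. The other four were Ly6a, Flrt3, Plbd1 and Mcoln3. Ly6a, the stem cell antigen Sca-1, which interferon also induces in many cells, had 6.30, 3.23 and 2.93 CPM in WT and 74.6, 63.1 and 37.4 CPM in cKO (adjusted p = 0.0146). Its call was lost without WT replicate 2 (adjusted p = 0.0962) or WT replicate 3. Flrt3, a transmembrane adhesion protein, rose from 5.30 ± 0.94 to 72.9 ± 6.81 CPM (SD, n = 3 each, log2 3.78 ± 0.70, adjusted p = 0.00469). Plbd1, a phospholipase B-like protein of myeloid cells, varied most within cKO, with 53.8, 119 and 161 CPM against 8.12 to 8.88 CPM in WT (adjusted p = 0.000187). Mcoln3, a cation channel of endosomes, had between 7.23 and 8.89 CPM in WT and between 67.8 and 96.1 CPM in cKO (adjusted p = 0.000288).

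The 10 that fell most by the same rule included the 3 genes altered by design. The others were Vldlr, Cav1, Rbpms, Clec2d, Rpl29, Fosb and Dram1. Cav1, which encodes caveolin-1, the coat protein of caveolae, had 91.6, 77.3 and 95.1 CPM in WT and between 12.9 and 23.3 CPM in cKO (log2 −2.42 ± 0.55, adjusted p = 0.0195). Vldlr, a receptor for triglyceride-rich lipoproteins, was at 30.7, 29.7 and 37.5 CPM in WT and 6.25, 8.85 and 3.32 CPM in cKO (adjusted p = 0.0134). Fosb, an AP-1 subunit encoded by an immediate early gene, had 562, 692 and 736 CPM in WT and 197, 209 and 170 CPM in cKO (−1.79 ± 0.22, adjusted p = 0.000241). Dram1, a lysosomal membrane protein that promotes autophagy, fell from 45.4 to 14.2 CPM on average (adjusted p = 0.00114). Rbpms, an RNA-binding protein, had an adjusted p of 0.00747. The calls on Cav1 (highest adjusted p 0.0977) and Clec2d (0.115) were lost on leaving out any 1 of the 6 libraries but cKO replicate 2, that on Rpl29 (0.0760) without WT replicate 1 or 2 or cKO replicate 2 or 3, and that on Vldlr (0.0789) without cKO replicate 1 or 3. Rpl29, a ribosomal protein gene, belongs to a family with many processed pseudogenes, and its counts are uncertain for that reason.

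Because ISGs share the ISRE, promoter windows of 300 bases (250 before to 50 after the annotated start, RefSeq, GRCm38.p6) were searched on both strands for its core, a pair of GAAA separated by 2 bases of any kind, which reads TTTC on the other strand with the same spacing. Of 32851 windows, 3.44% held it. Counted by gene, the core was found in 31 of 64 interferon list genes that had a window (48.4%), in 23 of the 36 called higher (63.9%) and in 8 of the 28 not called. It was found in 52 of 336 called-higher genes of any kind (15.5%), in 8 of 201 called-lower genes (3.98%) and in 420 of 10826 tested genes (3.88%). Among called-higher genes outside the interferon list the count was 29 of 300 (9.67%). A match is a description of these letters only. The windows of 3 called ISGs with the core and of Oasl1, the ISG of smallest p, which held none, are shown to let the spacing be read, with the core in capitals. In Gbp3 a pair of matches overlaps.
Oas3, chr5:120777610-120777909, minus strand: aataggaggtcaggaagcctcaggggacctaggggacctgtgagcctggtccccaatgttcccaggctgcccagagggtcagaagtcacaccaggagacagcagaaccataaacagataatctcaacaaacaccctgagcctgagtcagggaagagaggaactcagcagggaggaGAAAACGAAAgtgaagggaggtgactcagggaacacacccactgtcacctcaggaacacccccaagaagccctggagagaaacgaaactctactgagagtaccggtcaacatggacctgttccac
Gbp3, chr3:142559794-142560093, plus strand: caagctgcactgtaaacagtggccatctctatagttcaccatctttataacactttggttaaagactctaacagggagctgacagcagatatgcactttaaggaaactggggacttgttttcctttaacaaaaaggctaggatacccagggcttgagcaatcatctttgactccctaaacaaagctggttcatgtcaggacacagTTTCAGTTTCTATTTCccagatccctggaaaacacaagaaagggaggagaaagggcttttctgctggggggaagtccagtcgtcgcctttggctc
Rsad2, chr12:26456403-26456702, minus strand: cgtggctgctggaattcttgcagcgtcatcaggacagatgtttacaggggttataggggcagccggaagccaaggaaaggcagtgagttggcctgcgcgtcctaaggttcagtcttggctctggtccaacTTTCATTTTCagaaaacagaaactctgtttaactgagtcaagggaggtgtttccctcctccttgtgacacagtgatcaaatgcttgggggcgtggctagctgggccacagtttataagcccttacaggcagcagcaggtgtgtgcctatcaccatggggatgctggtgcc
Oasl1, chr5:114922990-114923289, plus strand: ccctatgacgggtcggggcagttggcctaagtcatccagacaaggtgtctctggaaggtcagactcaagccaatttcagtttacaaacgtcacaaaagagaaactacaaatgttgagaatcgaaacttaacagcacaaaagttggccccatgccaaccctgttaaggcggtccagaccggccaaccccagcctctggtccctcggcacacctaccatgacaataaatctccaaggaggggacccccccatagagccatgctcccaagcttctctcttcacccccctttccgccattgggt

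ISGs were the gene group with the most calls. Of 86 genes on the interferon list, 79 passed the filter on low counts, 47 rose in cKO and none fell (background 2.88% higher, 1.57% lower). At an unadjusted p under 0.05 the numbers were 58 higher and 3 lower, and DESeq2 called 50 higher and 1 lower. The ISGs below are given by role and were, beyond the 4 of smallest p and those the study names, picked after their values were seen. Their median log2 fold change was 1.57 against 0.0007 for all genes tested, and 67 of the 79 had every cKO library above every WT library, a pattern seen in 18.3% of all genes tested. Without WT replicate 1 the count of called ISGs was 31 and without WT replicate 2 it was 29. With each of the other libraries left out, it lay between 33 and 43. Members of the Ifit, Oas, Gbp, Schlafen and PYHIN families have close paralogs, and reads that map equally well to several genes were not counted, so the division of reads within a family is uncertain.

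The receptor side of the pathway did not rise. Ifnar1 had a mean of 241 CPM in WT and 180 CPM in cKO (log2 −0.42 ± 0.12, adjusted p = 0.0736), and its partner Ifnar2 85.4 and 64.4 CPM (adjusted p = 0.152). Jak1 and Tyk2, the kinases bound to the receptor, were not called either. Downstream of the receptor, the transcription factor gene Stat2 had 31.0, 30.2 and 33.9 CPM in WT and 101, 113 and 70.0 CPM in cKO (2.98-fold, adjusted p = 0.000693). The groups did not overlap, with cKO replicate 3 the lowest of its group. Irf9 was not called (log2 0.68 ± 0.23, adjusted p = 0.127).

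Among the 5 interferon regulatory factors, Irf7, which amplifies type I interferon production, was the only one called. It had 5.11, 3.12 and 3.48 CPM in WT and 110, 94.3 and 38.4 CPM in cKO (20.7-fold, log2 4.37 ± 0.66, adjusted p = 0.00114). Irf3 (adjusted p = 0.994), Irf5 (0.820) and Irf8 (0.693), which are present in macrophages without stimulation, and Irf1 (0.784) were not called. Transcripts of the ligands were near or at 0: Ifna2, Ifna4 and Ifng had no count in any of the 6 libraries, and Ifnb1 had 1 count in WT replicate 2 and 1 in cKO replicate 2, so a difference in these was not detectable at this depth. Of 4 feedback genes, Usp18, which removes ISG15 from proteins and dampens IFNAR signalling (5.67-fold, adjusted p = 0.00230), and Isg15 itself (6.10-fold, adjusted p = 0.00259) rose, while Socs1 and Socs3 did not pass.

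Sensors of nucleic acid rose in 3 of 10 cases. Ddx58, which encodes the RNA sensor RIG-I, had a mean of 12.7 ± 1.21 CPM in WT and 45.3, 43.0 and 27.4 CPM in cKO (3.04-fold, adjusted p = 0.0300). Ifih1, which encodes the RNA sensor MDA5, rose from 26.0 to 52.0 CPM (adjusted p = 0.0382), and Zbp1, a sensor of Z-form nucleic acid, from 1.96 to 10.4 CPM (adjusted p = 0.0146). The DNA sensor Cgas (adjusted p = 0.933), its downstream adaptor Sting1, listed in the annotation as Tmem173 (log2 0.61 ± 0.34, adjusted p = 0.434), and the RIG-I adaptor Mavs (adjusted p = 0.294) were not called. For Tmem173 the groups nevertheless did not overlap, with 28.6, 22.4 and 24.2 CPM in WT and 43.7, 35.6 and 35.4 CPM in cKO. The call on Ddx58 was lost on leaving out any 1 of the 6 libraries but cKO replicate 3 (highest adjusted p 0.125).

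Antiviral effectors gave the most calls, 24 of 35 tested, with a median log2 fold change of 1.94. Oasl1, an oligoadenylate synthetase-like protein that restrains translation of Irf7 (chr5:114923240-114937915), had 0.210, 0.340 and 0.458 CPM in WT and 24.2, 16.4 and 14.1 CPM in cKO (54.8-fold, log2 5.78 ± 0.48, adjusted p = 6.92e-06). Ifi44 (chr3:151730922-151749960) had 0.210, 0.0566 and 0.275 CPM in WT and 20.5, 23.1 and 7.26 CPM in cKO (log2 6.61 ± 0.85, adjusted p = 0.000404). Both genes were nearly silent in WT, so the size of the fold rests on few WT reads. Rsad2, which encodes viperin, had 5.32, 5.95 and 8.79 CPM in WT and 53.2, 85.8 and 58.2 CPM in cKO (9.86-fold, adjusted p = 0.000134). Oas3, which makes the oligoadenylates that activate RNase L, had 23.8, 17.8 and 15.1 CPM in WT and 319, 276 and 197 CPM in cKO (13.9-fold, adjusted p = 0.000698). Ifit3, of a family that binds viral RNA, had 0.910, 0.850 and 0.641 CPM in WT and 12.7, 16.4 and 12.6 CPM in cKO (16.9-fold, adjusted p = 0.00079). None of these groups overlapped.

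All 6 genes listed under the PYHIN role, from a family of DNA-binding proteins encoded side by side on chromosome 1, rose, with a median of 2.33. Of these, Ifi204 had 24.1, 20.5 and 19.9 CPM in WT and 93.8, 88.5 and 69.5 CPM in cKO (adjusted p = 0.00104). Aim2, a member of the same family listed among the sensors, was not called (log2 0.63 ± 0.31, adjusted p = 0.365). Of 5 Schlafen genes 3 rose, and of 7 interferon-inducible GTPases 6 rose, with a median of 3.02. Gbp3, a guanylate-binding protein, had 1.75, 0.623 and 1.28 CPM in WT and 9.19, 14.3 and 7.68 CPM in cKO (8.51-fold, adjusted p = 0.000458). Antigen presentation moved less: all 18 tested MHC class I pathway genes had a positive log2 fold change, with a median of 0.65. Only H2-T23, a non-classical class I molecule (adjusted p = 0.0101), and Erap1, which trims peptides (adjusted p = 0.0229), passed, against 2.88% of all genes tested. The call on H2-T23 was lost without WT replicate 2 (adjusted p = 0.0568) or 3. That on Erap1 was lost without any 1 of the 6 libraries (highest adjusted p 0.110), with library totals only, with no filter or with the counts of a single strand. With the 6 libraries alone, 14 of the 18 were called. None of the 7 MHC class II genes was called with edgeR or DESeq2 or had an unadjusted p under 0.05.

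**Figure D3:**
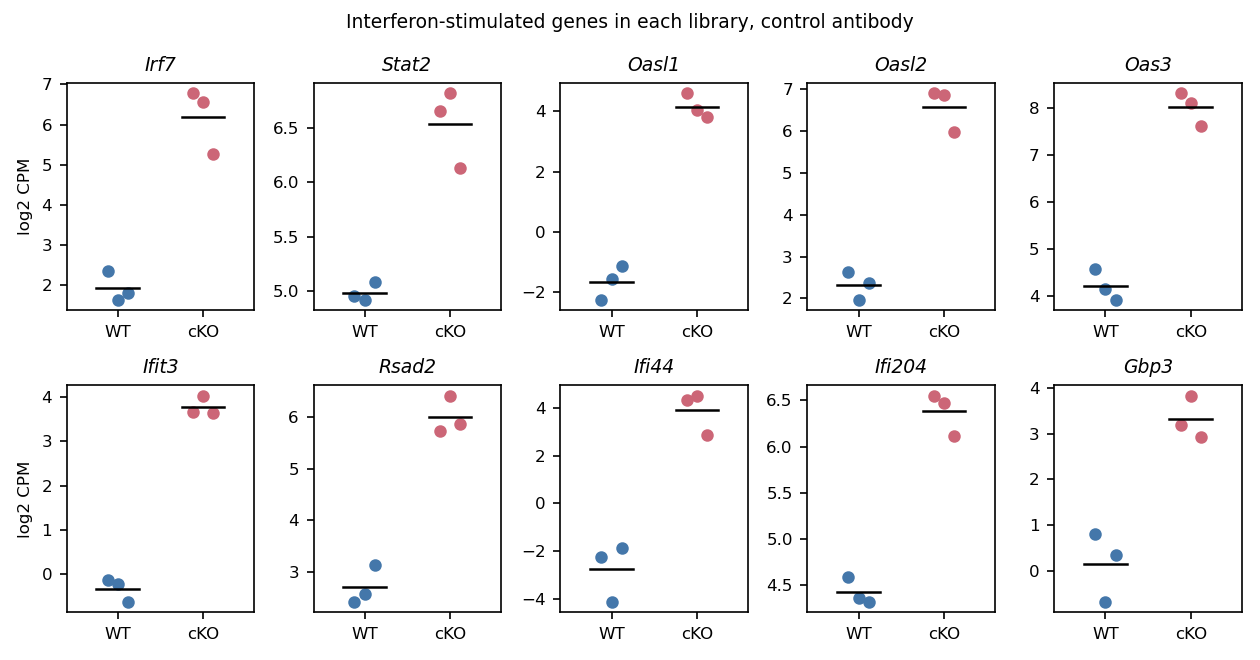
Level of 10 called interferon-stimulated genes as log2 CPM in each WT (blue) and cKO (red) library under control antibody; points are libraries, bars are group means of log2 CPM, and each panel has its own axis. In all 10 panels the lowest cKO library lies above the highest WT library; for Irf7 these are 38.4 and 5.11 CPM.

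A second view of the same question used the day 8 cultures of the series, where 1451 genes were at least 2-fold higher in WT BMDMs after interferon-γ. Of the 409 genes called higher under control antibody that were also tested on day 8, 149 (36.4%) were on that list, against 24 of 242 genes called lower (9.92%) and 1324 of 12875 genes tested in both (10.3%). Interferon-γ is a type II interferon whose targets overlap those of type I interferon, so the list does not separate these pathways. Over its 1324 tested members the median log2 fold change was 0.13.

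The arms without antibody and with IFNAR1 antibody had their own WT and cKO libraries, so the sizes of the cKO effect can be set side by side. Without antibody, 582 genes were higher (3.39%) and 639 lower (3.72%). With IFNAR1 antibody, 82 genes were higher (0.477%) and 34 lower (0.198%). The median log2 fold change of the interferon list was 1.84 without antibody, 1.57 under control antibody and 0.94 when IFNAR1 antibody was present, and 54, 47 and 25 of its 79 genes were called higher in that order. Stat2, at 1.57 under control antibody, was at 1.97 without antibody and 0.57 with IFNAR1 antibody. Gbp3 was at 3.09, 2.12 and 0.76, and Oasl1 at 5.78, 4.35 and 3.70, in the same order. Ifit3, at 4.08 under control antibody, was at 5.36 with IFNAR1 antibody (difference −1.28 ± 0.85, unadjusted p = 0.154), and the effects on Rsad2 in these arms differed by 0.14 ± 0.48 (unadjusted p = 0.782). A ratio can hold while levels move in both genotypes. Oasl2 in cKO had 120, 117 and 63.4 CPM under control antibody and 27.8, 13.05 and 13.6 CPM with IFNAR1 antibody. In WT it had 6.23, 3.91 and 5.125 CPM, and 0.577, 0.816 and 2.27 CPM with IFNAR1 antibody. Rsad2 in cKO overlapped between these arms, at 53.2, 85.8 and 58.2 CPM and then 53.45, 61.1 and 79.4 CPM. Ifit2 in cKO was higher with IFNAR1 antibody.

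Tests of the differences themselves called no single gene in the main edgeR fit. Some other edgeR settings called a few, as given below. For control antibody minus no antibody, 0 genes passed in edgeR, 1263 had an unadjusted p under 0.05 (7.35%) and DESeq2 called 31. For control antibody minus IFNAR1 antibody, 0 passed in edgeR, 975 had an unadjusted p under 0.05 (5.67%) and DESeq2 called 49. Within the interferon list the median difference between control and IFNAR1 antibody was 0.34, against 0.0068 for all genes tested, and 55 of 79 genes had the larger cKO effect under control antibody. An unadjusted p under 0.05 was reached by 10 of the 79, of which 8 were larger under control antibody. The smallest in the list was Gbp3 (difference 2.33 ± 0.55, unadjusted p = 0.000595, adjusted p = 0.319). Stat2 (unadjusted p = 0.00425) and Oasl1 (0.00586) followed the same direction.

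In the IFNAR1 antibody arm, WT replicate 3 and cKO replicate 1 lay apart from the other libraries of their group in a multidimensional scaling of the 18 libraries. Without WT IFNAR1 antibody replicate 3, 5 genes passed the test of the difference and the interferon median was 0.18. Without cKO IFNAR1 antibody replicate 1, 0 genes passed, the median was 0.62 and 22 of the 79 had an unadjusted p under 0.05. The number over all genes rose in that fit too, to 2403 of 17805 tested, from 975 of 17191 in the main fit. The count among the 79 was 5 without WT IFNAR1 antibody replicate 1 and 6 without WT control antibody replicate 2 or 3, cKO control antibody replicate 1 or cKO IFNAR1 antibody replicate 3. The median was 0.53 without cKO control antibody replicate 3. Outside the list, the smallest p-values, named after they were seen, belonged to Slc15a3 (difference 1.12 ± 0.17) and Cd24a (1.93 ± 0.29), each with an adjusted p of 0.0572.

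**Figure D4:**
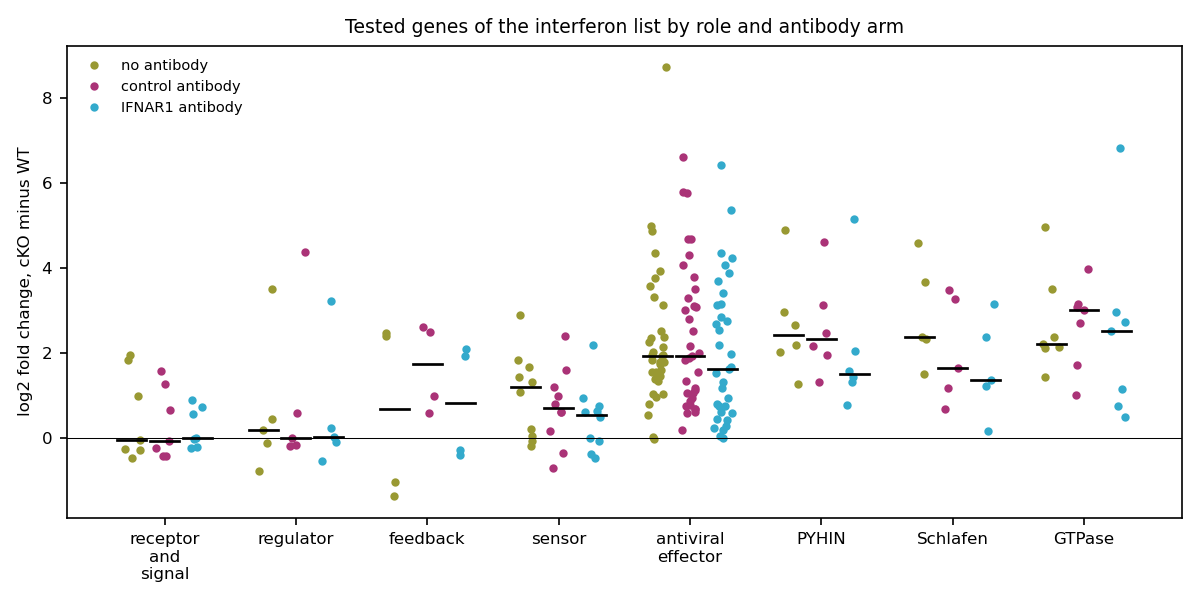
Log2 fold change of cKO minus WT for each of the 79 tested genes of the interferon list, by role on the x axis, in the arms with no antibody (olive), control antibody (purple) or IFNAR1 antibody (blue); black bars are medians. The antiviral effectors have medians of 1.93, 1.94 and 1.63 in that order and the PYHIN genes 2.42, 2.33 and 1.51.

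Several other groups had no call. None of 27 listed p53 target genes, 21 DNA damage genes, 26 replication genes, 24 mitosis genes, 12 H3.3 chaperone genes or 10 replication-coupled H3 genes was called with edgeR. At an unadjusted p under 0.05 there were 4 p53 targets lower, 3 DNA damage genes and 1 chaperone gene higher, 1 replication gene lower and no mitosis or replication-coupled H3 gene, and DESeq2 called 1 p53 target lower and no other of these genes. With the 6 libraries alone, 10 p53 targets were lower and 2 higher. The p53 target list does not hold every such gene: Dram1, called lower above, is not on it. The listed p53 targets had a median log2 fold change of −0.25, and 17 of the 27 had every cKO library below every WT library, against 18.5% of all genes. Without antibody, 13 of the same 27 were called lower, against 3.72% of all genes, and the median was −1.03. With IFNAR1 antibody none was called and the median was −0.28. For control minus no antibody, 11 of the 27 had an unadjusted edgeR p under 0.05, against 7.35% of all genes. The smallest p among them was that of Phlda3, an inhibitor of AKT signalling, with 94.6, 92.3 and 112 CPM in WT and 37.0, 33.1 and 25.5 CPM in cKO (adjusted p = 0.0542). Mitosis genes had a median of −0.24, which was 0.20 without WT replicate 1. Mki67, a marker of cycling cells, varied within the groups, at 179, 73.0 and 83.7 CPM in WT and 99.2, 49.0 and 58.8 CPM in cKO, and replicate 1 was the highest of both groups. Replication-coupled H3 transcripts are not polyadenylated, and the libraries were made by rRNA depletion. Their median was −0.22 under control antibody (0.32 without WT replicate 1), −0.06 with IFNAR1 antibody and 1.02 without antibody.

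Calls in the next 3 groups stand beside 2.88% higher and 1.57% lower over all genes tested. Among 41 nucleotide synthesis genes, Impdh1, which catalyses the committed step to guanine nucleotides, fell from 63.2 to 40.0 CPM (adjusted p = 0.0353). The call on Impdh1 was lost without cKO replicate 3 (adjusted p = 0.130) or any WT replicate, with library totals only and with the counts of a single strand. Of 35 apoptosis genes, Casp1, named above, and Bak1, a pore-forming effector, rose, and Mcl1, which protects macrophages from apoptosis (724, 756 and 814 CPM in WT, 526, 527 and 536 CPM in cKO, adjusted p = 0.0135), and Xiap, a caspase inhibitor, fell. Those of Bak1 (highest adjusted p 0.158), Mcl1 (0.0651) and Xiap (0.118) were lost when any 1 library was left out, except WT replicate 1 for Mcl1 and WT replicate 3 for Xiap. Mcl1 and Xiap also lost the call with library totals only. Of 21 chromatin silencing genes only Atf7ip, a partner of the H3K9 methyltransferase SETDB1, was called, rising from 90.0 ± 3.84 to 160 ± 4.27 CPM (adjusted p = 0.00919).

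Immediate early genes fell in 4 of 16 cases and rose in none, against 1.57% and 2.88% of all genes tested, with a median of −0.58. Beside Fosb, these were Junb, Fosl2 and Dusp1. Junb, an AP-1 subunit, had 859, 1044 and 1049 CPM in WT and 578, 569 and 447 CPM in cKO (adjusted p = 0.0340). With IFNAR1 antibody the median of the 16 was 0.03. For the difference between these arms, 8 of the 16 had an unadjusted edgeR p under 0.05, against 5.67% of all genes, and none passed after adjustment. The calls on Junb and Dusp1 were lost when any 1 library was left out (highest adjusted p 0.165 and 0.174, both without cKO replicate 3), and that on Fosl2 with any but WT replicate 1 left out (0.152). Dusp1 also lost it under 5 other alternatives.

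Of 29 macrophage identity genes tested, C1qc rose and Itgam, Cebpb and Apoe fell, against 2.88% and 1.57% of all genes. Every cKO library lay above every WT library for 9 of the 29 and below for 11, against 18.3% and 18.5% of all genes. DESeq2 called 3 higher and 6 lower, and the 6 libraries alone gave 8 and 8. Itgam, the CD11b integrin, had 196, 196 and 179 CPM in WT and 96.0, 128 and 114 CPM in cKO (adjusted p = 0.00847). Cebpb, a myeloid transcription factor, had 469, 472 and 485 CPM in WT and 178, 307 and 209 CPM in cKO (adjusted p = 0.00559). Apoe, an apolipoprotein (adjusted p = 0.0470), and C1qc, a complement chain (adjusted p = 0.0450), lost their calls when any 1 library was left out (highest 0.168 without WT replicate 1 and 0.221 without cKO replicate 1). Without cKO replicate 1, Itgam had an adjusted p of 0.0523. Monocyte genes rose in 5 of 18 cases, against 2.88% of all genes. Among them, Ly6c2, the Ly6C antigen of inflammatory monocytes, had between 0.458 and 0.560 CPM in WT and between 6.69 and 9.52 CPM in cKO (adjusted p = 0.000871), and Ms4a4c (0.00899) lost its call without WT replicate 1 or 2 (highest 0.0548). Neutrophil markers summed to between 108 and 127 CPM in WT and between 175 and 293 CPM in cKO. Prtn3, Mmp8 and Csf3r were the 3 of 6 tested that rose, against 2.88% of all genes, while Ly6g had no count. Mmp8 lost its call without WT replicate 2 or cKO replicate 3 (highest 0.0620), and Csf3r with any library but cKO replicate 2 left out (highest 0.174). Their part in the other results was not tested.

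Of 16 cytokine genes 2 rose and 1 fell, against 2.88% and 1.57% of all genes tested. Il1rn, the interleukin-1 receptor antagonist, rose from 7.79 ± 1.55 to 22.3 ± 1.91 CPM (adjusted p = 0.00105). Csf1, the growth factor of macrophages, had 14.1, 6.46 and 22.8 CPM in WT and 72.1, 114 and 109 CPM in cKO (log2 2.78 ± 0.45, adjusted p = 0.00196). Csf1 and the summed stromal markers given above were both lowest in WT replicate 2 and, within WT, highest in replicate 3, and the part of stromal cells in it was not tested. Osm, an interleukin-6 family cytokine, fell from 161 ± 8.05 to 80.1 ± 12.2 CPM (adjusted p = 0.0133), and lost the call without WT replicate 2, cKO replicate 1 or cKO replicate 3 (highest 0.0708) and with library totals only. Abcg1, a cholesterol exporter, rose from 101 ± 16.4 to 289 ± 11.3 CPM (adjusted p = 0.000358). Of 25 lysosomal genes 2 rose, Hgsnat, described above, among them, against 2.88% of all genes tested. Of 27 sterol and lipid synthesis genes, Srebf1, the SREBP1 transcription factor, and Sptssa, a subunit of serine palmitoyltransferase, fell, against 1.57% of all genes tested. Sptssa (adjusted p = 0.0116) lost the call without WT replicate 1 or 2 or cKO replicate 3 (highest 0.0613), and Srebf1 (adjusted p = 0.0295) with any 1 library left out (highest 0.123) and with library totals only or no filter.

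**Figure D5:**
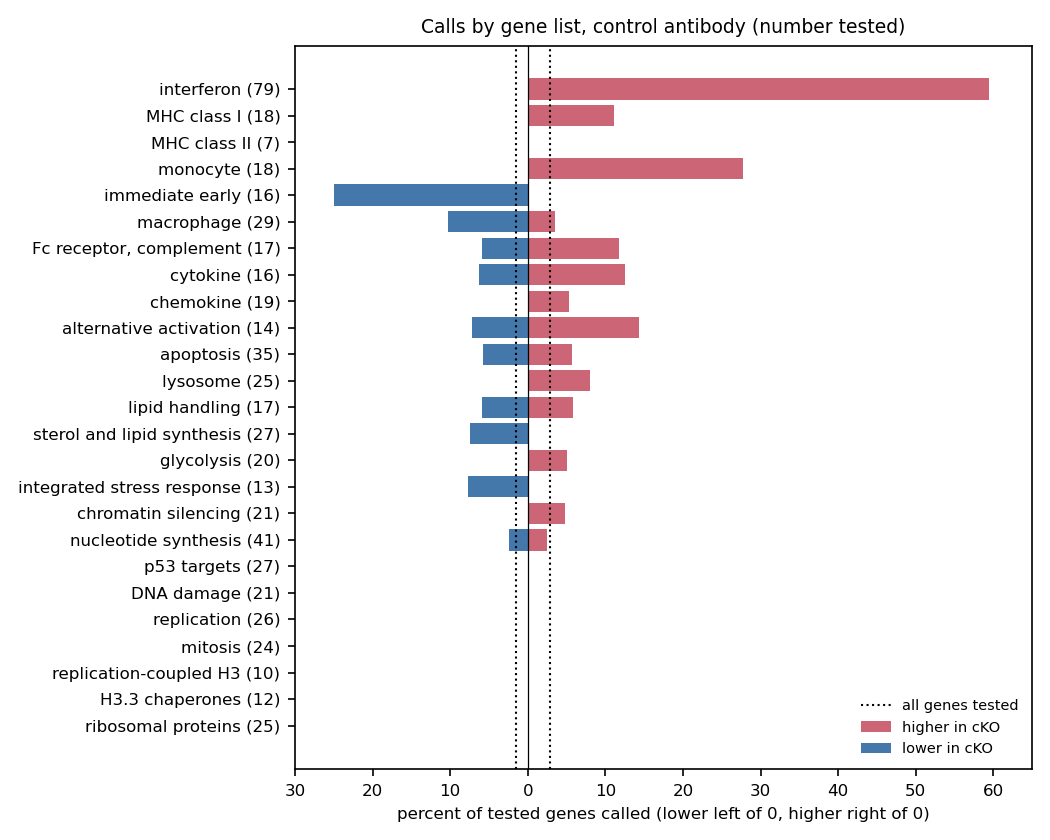
Percent of the tested genes of each list called higher (red, right of 0) or lower (blue, left of 0) in cKO under control antibody, with the number tested in brackets; dotted lines mark the same percent over all 17191 genes tested, 2.88 higher and 1.57 lower. The interferon bar is the longest, with 47 of 79 genes higher, and the lists from p53 targets down have no bar.

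Of 17 genes that the study names in its account of these cells, 5 were higher and 2 lower under control antibody. Ifi44, Irf7, Ifi204 and Ddx58 were among those that rose, and Sptssa and Impdh1 fell, as given above. A list chosen by the study is not independent of these samples. Bcl2l11, which encodes the pro-apoptotic BIM, had 165, 206 and 197 CPM in WT and 219, 221 and 241 CPM in cKO (adjusted p = 0.377). Lpin1, a phosphatidate phosphatase, had 28.1, 29.9 and 36.9 CPM in WT and 16.3, 19.5 and 17.8 CPM in cKO (adjusted p = 0.529). Col1a1, a collagen of stromal cells, spanned 6.23 to 113 CPM in WT and 83.2 to 156 CPM in cKO (adjusted p = 0.545), and the groups overlapped. Tk1 (0.639), Paics (0.395), Uprt (0.369), Gmpr (0.577), Adssl1 (0.751) and Rac3 (0.698) did not pass. In the fit of the 6 libraries alone, Bcl2l11, Lpin1, Adssl1, Uprt, Paics and Tmem173 passed.

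Genes near the 3 altered loci were counted on their own. Within 5 Mb of Lyz2, 3 of 53 tested genes were called, within 5 Mb of H3f3a 2 of 94 and within 5 Mb of H3f3b 9 of 185, against 4.45% of all genes tested. Near H3f3b, Ten1 (22.1, 21.3 and 21.4 CPM in WT, 10.1, 9.22 and 7.99 CPM in cKO, adjusted p = 0.000176) and Mcrip1 (28.4 ± 0.93 to 12.7 ± 0.48 CPM, adjusted p = 0.000310) fell and Hmga1b rose (adjusted p = 0.00587). Near H3f3a, Ephx1, an epoxide hydrolase, fell from 42.5 ± 4.88 to 14.8 ± 1.69 CPM (adjusted p = 0.00124). Other named calls near these loci were Slc39a11, Cd300c2, Hlx, Rassf3, Msrb3 and Lemd3. Without WT replicate 1, Cd300c2 (adjusted p = 0.0533) lost its call, Hlx lost it with any library but cKO replicate 2 left out (highest 0.144), Msrb3 without WT replicate 1 or 2 or cKO replicate 3 (highest 0.122), and Lemd3 with any 1 left out (highest 0.171).

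Called genes that rose often stood next to each other, a pattern looked for after values were seen. Of the 495 genes called higher, 153 (30.9%) had a neighbouring tested gene that was also called higher, against 928 of all 17191 genes tested (5.40%). Without the interferon list the count was 127 of 448 (28.3%). Of the 270 called lower, 18 (6.67%) had a neighbour called lower, against 3.09% of all genes. Clusters of related ISGs contributed, such as Oasl1 and Oasl2, and so did unrelated neighbours. Pomk, 3.85 kb from Hgsnat, rose from 15.2 to 76.6 CPM (adjusted p = 0.000293), and Ash2l, 96.8 kb on its other side, from 47.7 to 153 CPM (adjusted p = 0.0134). Tmem132a, which overlaps Slc15a3, rose from 24.4 to 52.5 CPM (adjusted p = 0.000176). The values came from counting without strand, so reads of overlapping or antisense genes cannot be told apart.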

How the data were processed

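RNA was rRNA-depleted, sequenced as paired ends and, per the study's methods, trimmed with Cutadapt and aligned to mm10 with STAR. The authors deposited STAR gene tables of raw counts (number of read pairs per gene, no normalization), and the unstranded count column was used, since the columns for either strand had similar totals. Identifiers were joined to GENCODE M21, where 54079 of 54146 matched.

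Genes were kept by filterByExpr in edgeR 4.0.16 (minimum count 10, minimum total 15), scaled by TMM and fitted with edgeR's quasi-likelihood test on all 18 libraries of the antibody experiment, without a replicate block. P-values were Benjamini-Hochberg adjusted over all genes, with calls made under 0.05. SE is the log2 fold change divided by the root of F. R 4.3.3, limma 3.58.1 and DESeq2 1.42.0 were used. The interferon-γ list came from the 10 day 8 libraries with a group label (adjusted p under 0.05, log2 fold change over 1). Alternatives were DESeq2, RLE scaling, library totals, no filter, a mean of at least 1 CPM, the 6 libraries alone, the strand column of larger total, a replicate block and each library left out.

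On simulated counts for this comparison, over 16702 genes, 28 of 100 genes changed by 1 on the log2 scale and 90 of 100 changed by 2 were recovered, with 3 false calls. Replicate libraries differed from each other by more than sampling noise (chi-square per degree of freedom 4.10 to 12.3). The labels call the libraries biological replicates without naming separate animals or cultures, so p-values measure the spread between these libraries. Multimapping reads (6.53 to 8.71% of reads) and reads outside genes (21.1 to 28.9%) were left out.

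Named genes were the targeted genes, those the study names, the 10 highest and 10 lowest called genes whose groups did not overlap and whose log2 CPM averaged 3 or more, leaving out predicted genes, the 4 of smallest p in each list, and up to 5 called genes within 5 Mb of the altered loci. The gene lists and tests were chosen with earlier results of these data known. Other samples were not used here. The authors' fold-change tables hold their own comparisons and were not used. Some genes that the rule names are not reported here.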

Additional observations from a re-analysis of the deposited data

Results flagged for a closer look

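Cd24a, which encodes a heavily glycosylated surface protein, was flagged because its cKO libraries lay above all WT libraries under control antibody and below all WT libraries under IFNAR1 antibody. Under control antibody it had 29.7, 24.6 and 24.5 CPM in WT and 40.6, 69.9 and 71.9 CPM in cKO, a log2 fold change of 1.21 ± 0.21. Under IFNAR1 antibody it had 27.2, 26.7 and 21.3 CPM in WT and 14.4, 15.6 and 15.5 CPM in cKO. Without antibody it had 17.7, 20.95 and 14.2 CPM in WT and 13.5, 13.5 and 17.7 CPM in cKO, a log2 fold change of −0.24, and the groups overlapped. The effect under control antibody exceeded that without antibody by 1.45 ± 0.29 (unadjusted p = 0.000151, adjusted p = 0.456 in edgeR). Against IFNAR1 antibody, the difference of the effects was 1.93 ± 0.29 on the log2 scale, with an unadjusted p of 6.66e-06 and an adjusted p of 0.0572 in edgeR. Cd24a is on the dendritic cell marker list, whose sum was 29.96 to 38.7 CPM in WT and 61.8 to 113 CPM in cKO under control antibody. Cd24a itself made up most of that sum in every library, so the sum is not separate information on this gene. The part of dendritic cells in this result was not tested. Groups of 3 libraries were not searched for outlying samples.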

How the results depend on the processing

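Under other settings the control antibody comparison gave counts of called genes beside its 765. DESeq2 called 1149 genes, the 6 control antibody libraries alone 3384 and a log2 fold change of at least 1 left 495. Leaving out 1 library gave 290 to 499 calls. RLE scaling (749), library totals only (743), no filter (744), a mean of at least 1 CPM (703) and the counts of a single strand (610) stayed within 1.5 times.

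The difference between control and no antibody gave 0 calls, and 31 with DESeq2 and 1 with the counts of a single strand. Leaving out a library gave 0 to 0. The difference between control and IFNAR1 antibody gave 0 calls, and 49 with DESeq2, 10 with no filter and 2 at a mean of at least 1 CPM, and 0 to 5 with a library left out. The cause of these changes was not tested.

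Replicate numbers were shared between groups, but same-numbered WT and cKO libraries under control antibody correlated at 0.148, −0.0162 and 0.104 and not every library correlated best with its own number, so the numbers were not taken as pairs. Between arms, same-numbered control and no antibody libraries correlated at 0.149, 0.145 and 0.284 in WT and at 0.192, 0.0703 and 0.135 in cKO, each the best match of its control antibody library. For IFNAR1 antibody the values were 0.029, 0.0765 and 0.169 in WT, where replicate 1 matched another number better, and 0.140, 0.0912 and 0.0920 in cKO. With a replicate block the comparison called 847 genes. With a replicate block within genotype the differences called 0 genes against no antibody and 7 against IFNAR1 antibody. In the latter, 15 of the 79 interferon list genes had an unadjusted p under 0.05, 14 of them larger under control antibody, instead of 10 and 8. Of all 17191 genes tested, 1209 had an unadjusted p under 0.05 there, instead of 975.

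Of 77 named genes that were called, 39 kept the call in every alternative run, 38 lost it in at least 1, and none reversed. Depth was lowest in cKO replicate 2, with 5295144 counts.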

Other observations

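Several smaller groups had single members that moved. Of 17 Fc receptor and complement genes 2 rose and 1 fell, against 2.88% and 1.57% of all genes tested. Fcgr4, an activating Fc receptor for IgG2, had 33.8, 29.0 and 31.7 CPM in WT and 90.5, 89.6 and 92.4 CPM in cKO (edgeR adjusted p = 0.0118), and lost the call without WT replicate 2 (0.0749). Of 14 alternative activation genes, Cd209f, a C-type lectin, had 0, 0 and 0.183 CPM in WT and 22.3, 6.87 and 7.36 CPM in cKO (adjusted p = 0.000369). WT reads of Cd209f were too few for a fold. Arg1, arginase 1, fell from a mean of 8.96 to 2.32 CPM (adjusted p = 0.0283), and lost the call with any library but cKO replicate 3 left out (highest 0.117) and with library totals only.

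Of 6 tested B cell markers 1 rose and 1 fell, against 2.88% and 1.57% of all genes tested. Cd22, an inhibitory receptor, rose, with 6.79, 6.85 and 7.14 CPM in WT and 15.4, 14.3 and 17.9 CPM in cKO (adjusted p = 0.00484). Ighm, the IgM heavy chain, fell, with 4.27, 5.66 and 4.58 CPM in WT and 0.389, 0.723 and 0.104 CPM in cKO (adjusted p = 0.00510). The groups did not overlap for either gene. Of 7 mitochondrially encoded genes tested, mt-Nd5 and mt-Co1 rose (adjusted p = 0.0270 and 0.0207), against 2.88% of all genes. Both lost the call without WT replicate 2 or 3 or cKO replicate 1 or 3 (highest 0.155 and 0.125).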
